A study of Homo sapiens with 20 samples.

Results

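The 38 genes described here encode the glycolytic pathway and the hypoxia response of MM1.S cells, an established human multiple myeloma cell line. They were listed by name and sorted by role into 3 subunits of the hypoxia-inducible factor (HIF), 17 glycolytic enzymes with lactate dehydrogenase, 4 genes of glucose transport and flux control, and 14 HIF targets of other function, out of 19593 genes in all. These genes and the further lists below were chosen with earlier results of these data known. Their counts beside all genes are therefore a description. For each gene the transcript that collected most reads was used. Of the 38, 37 had at least 1 read, 34 were tested in newly made RNA and 35 in total RNA.

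SLAM-seq was used to follow newly made RNA after treatment with dCBP-30, a degrader of the acetyltransferases CBP and p300. Cells received 10 nM dCBP-30 or the vehicle DMSO for 2, 6 or 24 h and were labelled with 100 µM 4-thiouridine (4sU) for the last 1 h, in 3 replicate libraries for each of the 6 groups. After alkylation, incorporated 4sU is read as C, so reads in which a genomic T is read as C (T>C reads) stand for RNA synthesised within the labelling hour. A further 2 libraries were not labelled and show how many T>C reads arise without 4sU. All groups are the unmodified (WT) line, each time point has its own DMSO libraries, and nothing in the sources used here says that replicates came from separate cultures, so p-values measure the spread between these libraries only.

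HIF is a dimer of an oxygen-sensitive alpha subunit (encoded by HIF1A or EPAS1) and the constant beta subunit ARNT. In the presence of oxygen, prolyl hydroxylases such as EGLN1 mark the alpha subunit for destruction. When it is stable, the dimer binds hypoxia response elements with the core ACGTG or GCGTG and recruits CBP and p300 through the transactivation domain of the alpha subunit. Its best known targets raise glucose uptake (SLC2A1), the breakdown of glucose to lactate (HK2, ENO1, LDHA), the diversion of pyruvate from mitochondria (PDK1) and the growth of vessels (VEGFA). Glycolytic genes also carry binding sites for other factors, MYC among them, which binds the E-box CACGTG.

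The promoter windows of the genes that carry the results are shown first. They come from the RefSeq promoter table of build GRCh38.p14 (250 bases before to 50 bases after the start site, the first listed start of each gene), which held 35 of the 38 genes and did not list NDRG1, BNIP3L and VEGFA. Each line gives up to 30 bases on the strand of the gene, with a match to ACGTG or GCGTG in capitals. The first 3 belong to HIF targets of other function whose new RNA was already lower at 2 h. The other 6 belong to glycolytic enzymes, of which ENO2 was lower at 2 h by more than 2-fold and ENO1 by less.
ADM: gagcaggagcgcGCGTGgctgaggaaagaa
ANKRD37: cagtgtttgtgtACGTGcggccgtggcggg
DDIT4: agaacgttgcttACGTGcgcccggagtcca
HK2: cgcagccaatggGCGTGcgcacgtcactga
GAPDH: ctctgcggggtcACGTGtcgcagaggagcc
PGK1: gcggcgtgccggACGTGacaaacggaagcc
ENO1: ggagctgaggggGCGTGccccggaggcggg
ENO2: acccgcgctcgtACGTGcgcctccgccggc
LDHA: agcccgactcacACGTGggttcccgcacgt
On GRCh38.p14 these windows lie at chr11:10304960-10304989 for ADM, chr4:185396686-185396715 for ANKRD37, chr10:72273787-72273816 for DDIT4, chr2:74834060-74834089 for HK2, chr12:6535172-6535201 for GAPDH and chrX:78104034-78104063 for PGK1. The windows of ENO1 (minus strand), ENO2 and LDHA lie at chr1:8878741-8878770, chr12:6914450-6914479 and chr11:18394465-18394494. In GAPDH and LDHA the printed match lies inside a CACGTG, so it is a hypoxia core and an E-box at once. Searched on both strands, ACGTG or GCGTG stood in 27 of the 35 promoters (77.1%), against 48.4% of the 27305 promoters of the table. ACGTG alone stood in 15 (42.9%, against 21.6%), and CACGTG, which holds ACGTG on both strands, in 6 (17.1%, against 7.43%). Of the HIF targets of other function 10 of 11 had one of both cores (90.9%), of the glycolytic enzymes 12 of 17 (70.6%). These 11 targets include CA9, BNIP3 and EGLN3, which were not tested in new RNA, so they are not the 11 targets tested below. The window of PDK1 held neither. These counts are a description of letters in a window and not of bound sites.

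The libraries held 12439672 to 18727376 reads on genes. T>C reads were 6.08% ± 0.0776 (SD, n = 3) of reads under DMSO at 2 h and 5.54% ± 0.138 under dCBP-30, against 0.794% and 0.809% in the libraries without 4sU. At 24 h the shares were 8.31% ± 0.266 and 6.38% ± 0.475 (SD, n = 3). Counted conversions divided by T>C reads, called conversions per T>C read below, were 2.48 ± 0.0253 under DMSO but 1.47 ± 0.0431 under dCBP-30. Without 4sU that ratio was 0.924 although each T>C read holds a conversion, so it is not a strict count within reads. All 9 plasma cell markers averaged over 100 reads, as the label of the line has it, and their summed level was 5830 to 7569 RPM (reads per 1000000 of scaled library size) under DMSO and 620 to 5172 RPM under dCBP-30. The 4 B cell markers summed to at most 0.550 RPM, the 4 myeloid markers to at most 1.23 RPM, the 4 epithelial markers to at most 3.56 RPM and the 4 T cell markers to 2.39 to 16.7 RPM, with CD3D and EPCAM at 0 in the labelled libraries. dCBP-30 acts on protein, so the RNA of its targets does not check the treatment: the new RNA of CREBBP and EP300 at 2 h had log2 fold changes of 0.50 and 0.13 (edgeR's quasi-likelihood test, adjusted p = 0.38 and 0.80). Their total RNA was higher at 24 h, at 52.0 ± 4.44 against 22.2 ± 4.49 RPM for CREBBP and 568 ± 64.3 against 159 ± 39.1 RPM for EP300 (SD, n = 3; log2 fold changes 1.23 and 1.84, edgeR's adjusted p = 1.6e-05 and 1.8e-08). New RNA of EP300 was then 84.3 ± 16.3 against 43.9 ± 9.55 T>C RPM, under 2-fold, and CREBBP was not called.

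New RNA of 5 HIF targets outside glycolysis was lower at 2 h, when 1 glycolytic enzyme was, and 11 glycolytic enzymes were lower at 24 h. A gene was called when the adjusted p was under 0.05 (edgeR's quasi-likelihood test on T>C reads, Benjamini-Hochberg over all 10083 genes tested) and the change more than 2-fold. At 2 h, 5 of 11 tested HIF targets of other function were lower (ADM, ANKRD37, DDIT4, NDRG1, VEGFA), 1 of 16 tested glycolytic enzymes (ENO2) and 1 of the 4 genes of transport and flux control (PDK1), while SLC2A1 alone was higher. Over all genes, 7.14% were lower and 1.64% higher at 2 h. The median log2 fold change was -0.997 for the HIF targets of other function, 0.06 for the glycolytic enzymes and 0.04 for all genes. At 6 h, 6 of the 11 HIF targets and 7 of the 16 glycolytic enzymes were lower, with medians of -2.20 and -0.89 against -0.27 for all genes, of which 17.1% were lower and 2.36% higher. At 24 h, 4 of the 11 HIF targets and 11 of the 16 enzymes were lower, with medians of -0.98 and -1.53 against -0.69 for all genes, of which 31.2% were lower and 2.18% higher. Among the 34 genes, new RNA was lower in 7 and higher in 1 at 2 h. It was lower in 14 and higher in 1 at 6 h. At 24 h, 17 were lower and 0 higher (1 higher at an unadjusted p under 0.05 by edgeR and 0 by DESeq2).

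**Figure D1:**
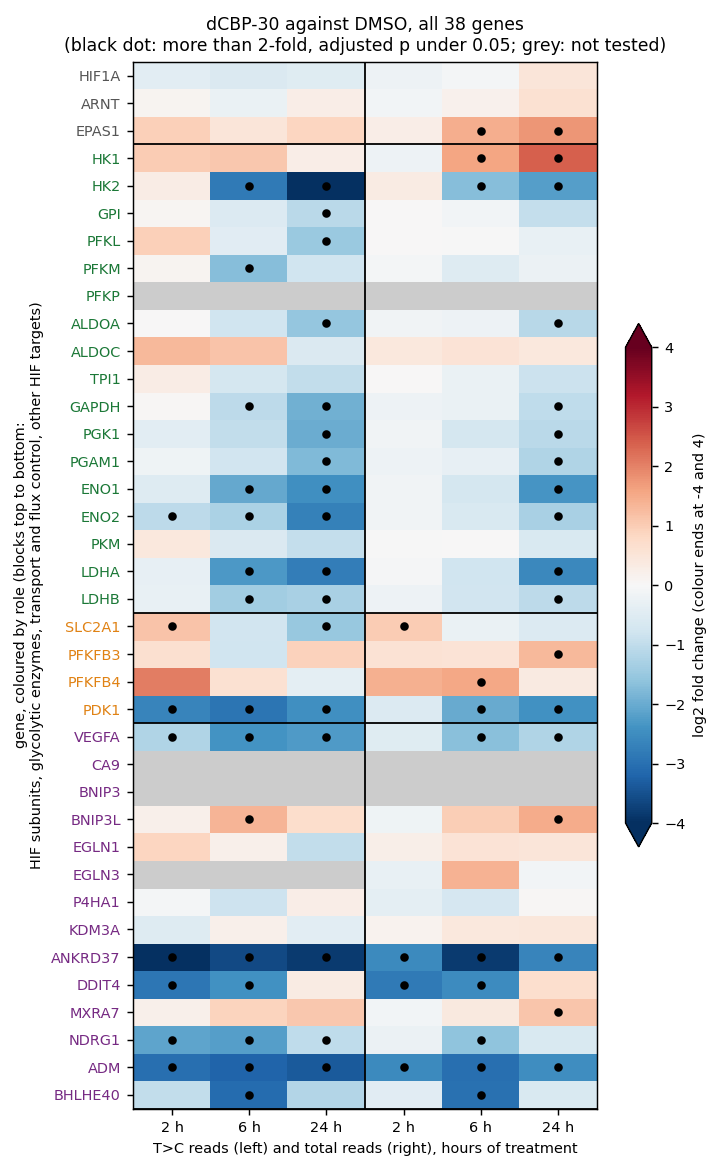
log2 fold change of dCBP-30 against DMSO for all 38 genes (rows, in blocks by role) in T>C reads (left 3 columns) and total reads (right 3 columns) at 2, 6 and 24 h, blue for lower and red for higher, with a black dot for each called change and grey for genes not tested. In T>C reads the lowest block has dots at 2 h for 5 HIF targets, and the glycolytic block has 1 dot at 2 h, 7 at 6 h and 11 at 24 h.

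The change of all genes together bears on the later counts. Library sizes were total reads with TMM factors, and with them the median gene in T>C reads lay below 0 at 6 and 24 h. With total reads alone it stood at 0.04 at 6 h and -0.16 at 24 h. With library sizes taken from T>C reads, the median gene stood at 0.04 at 6 h and at -0.03 at 24 h. Then 11 members were lower at 6 h (background 11.8%) and 11 at 24 h (background 14.8%). Of the glycolytic enzymes 4 were then lower at 6 h (HK2, ENO1, LDHA, LDHB) and 7 at 24 h (HK2, GAPDH, PGK1, PGAM1, ENO1, ENO2, LDHA). With that scaling BNIP3L and PFKFB3 were higher at 24 h (background 7.69%). Conversions per T>C read at 24 h were lower under dCBP-30 in all 32 members with at least 50 T>C reads under DMSO. Their part in the 24 h values was not tested. The methods describe a spike-in of 4sU-labelled Drosophila RNA, which none of these scalings used. A lower level could come from less RNA of a gene per cell or from fewer cells that make it, which these bulk libraries cannot tell apart.

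None of the 3 HIF subunits was called in new RNA at any time (0 of 3 by edgeR and by DESeq2, also at an unadjusted p under 0.05). HIF1A, the main alpha subunit, had 4.25, 3.60 and 2.77 T>C RPM under DMSO at 2 h and 2.68, 3.63 and 1.63 under dCBP-30. Its groups overlapped at 2 h, whereas at 6 and 24 h every treated library lay below every vehicle library (1.44 to 2.99 against 3.18 to 4.20, and 2.58 to 3.18 against 3.69 to 4.57 T>C RPM). Its log2 fold changes were -0.42 ± 0.41 (SE), -0.57 ± 0.41 and -0.50 ± 0.40 at 2, 6 and 24 h (edgeR's quasi-likelihood test, adjusted p = 0.63, 0.35 and 0.35). The median of all genes in T>C reads was -0.27 at 6 h and -0.69 at 24 h. For the 3 subunits the median at 24 h was 0.26, and 0.91 when scaled by the T>C reads. ARNT, the beta subunit, had 3.55, 2.75 and 2.24 T>C RPM under DMSO and 1.90, 3.04 and 4.19 under dCBP-30 at 2 h, and log2 fold changes of 0.11 ± 0.36 (SE), -0.27 ± 0.34 and 0.26 ± 0.33 (adjusted p = 0.92, 0.64 and 0.58). The intervals are wide, since HIF1A had 484 and ARNT 635 T>C reads over all 9 DMSO libraries. Total RNA of both was higher at 24 h without overlap, but neither was called. HIF1A had 8.88 to 11.6 RPM under DMSO and 12.8 to 15.9 under dCBP-30, and ARNT 39.5 to 46.3 and 58.9 to 67.6. EPAS1, the other alpha subunit, was low in new RNA (79 T>C reads over the DMSO libraries) and was called higher in total RNA alone. Its total level was 2.98, 3.99 and 1.74 RPM under DMSO at 24 h and 9.42, 8.91 and 11.3 RPM under dCBP-30, with no overlap, a log2 fold change of 1.76 ± 0.31 (adjusted p = 2.9e-05), after 1.46 ± 0.31 at 6 h (adjusted p = 0.00058).

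ADM encodes adrenomedullin, a vasodilator peptide and a classic hypoxia target. Its counted 3′ UTR lies at chr11:10306639-10307397 (hg38, GENCODE release 44). At 2 h it had 119.8, 137 and 143 T>C RPM under DMSO and 18.2, 15.9 and 15.1 under dCBP-30, so every treated library lay far below every vehicle library. The log2 fold change was -3.02 ± 0.25 (SE, adjusted p = 4.1e-10), and it stayed at -3.20 ± 0.25 at 6 h and -3.37 ± 0.25 at 24 h (adjusted p = 6.4e-11 and 2.1e-11). Total ADM RNA was lower by nearly as much at 2 h, with 153, 181 and 199 RPM under DMSO and 33.3, 29.7 and 27.5 under dCBP-30 (log2 fold change -2.56 ± 0.18, adjusted p = 2.2e-10).

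PDK1 encodes the kinase that switches off pyruvate dehydrogenase and so keeps pyruvate from the mitochondria. Its 3′ UTR of 12703 bases lies at chr2:172595967-172608669. At 2 h its new RNA was 50.6, 44.4 and 49.8 T>C RPM under DMSO and 6.82, 8.45 and 8.07 under dCBP-30, a log2 fold change of -2.63 ± 0.20 (SE, adjusted p = 1.7e-16). It was -2.92 ± 0.20 at 6 h and -2.44 ± 0.20 at 24 h (adjusted p = 1.4e-18 and 4.3e-16), without overlap of the groups at any time. Total PDK1 RNA followed more slowly: its log2 fold change was -0.55 ± 0.12 at 2 h, under 2-fold (adjusted p = 0.0083), -2.003 ± 0.13 at 6 h and -2.43 ± 0.13 at 24 h (adjusted p = 2.6e-12 and 4.3e-14).

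ANKRD37, an ankyrin repeat protein known as a HIF target, had the largest decrease of the 34 genes at 2 h. Its 227 counted bases at chr4:185399772-185400241 are opposite to the 3′ UTR of UFSP2. It had 6.64, 7.19 and 5.53 T>C RPM under DMSO at 2 h and 0.173, 0 and 0.2502 under dCBP-30, which is 262 against 6 T>C reads in all. The log2 fold changes were -5.44 ± 0.61 (SE), -3.61 ± 0.50 and -3.84 ± 0.48 at 2, 6 and 24 h (adjusted p = 1.4e-10, 2.9e-08 and 1.3e-09). NDRG1, a stress-induced gene of differentiation, had 11.6, 12.9 and 18.1 T>C RPM under DMSO at 2 h and 3.63, 3.96 and 2.38 under dCBP-30. Its log2 fold changes were -2.10 ± 0.27 (SE), -2.20 ± 0.27 and -1.03 ± 0.25 (adjusted p = 8.0e-09, 6.0e-10 and 0.00063). The groups did not overlap at any time, and the 24 h value was -0.37 when scaled by the T>C reads, no longer called.

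VEGFA, the vascular growth factor, was lower at all 3 times, least firmly at 2 h. Its new RNA was 3.24, 7.97 and 7.10 T>C RPM under DMSO and 2.16, 2.64 and 3.19 under dCBP-30 at 2 h, where the first vehicle library lay near the treated ones (log2 fold change -1.19 ± 0.41, SE, adjusted p = 0.049). This call was lost under 13 of 27 alternatives, among them leaving out DMSO replicate 2 at 2 h (-0.95). At 6 and 24 h the log2 fold changes were -2.38 ± 0.43 and -2.28 ± 0.43 (adjusted p = 1.0e-05 and 1.5e-05). BHLHE40, a clock-linked repressor, rested on few reads: 17, 42 and 25 T>C reads under DMSO at 6 h against 6, 0 and 5 under dCBP-30 (log2 fold change -3.08 ± 0.92, SE, adjusted p = 0.0090). The call was lost without dCBP-30 replicate 2 at 6 h (-2.49) and with reads summed over transcripts (-3.05). It was -0.997 ± 0.85 at 2 h and -1.18 ± 0.80 at 24 h, where the treated libraries ranged from 0 to 2.68 T>C RPM (adjusted p = 0.56 and 0.25).

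DDIT4, an inhibitor of mTOR signalling that also answers to other stresses, was lower early and back at the vehicle level at 24 h. It had 8.34, 12.6 and 9.19 T>C RPM under DMSO at 2 h and 0.863, 1.85 and 1.31 under dCBP-30 (log2 fold change -2.88 ± 0.36, SE, adjusted p = 3.8e-09). At 6 h it was -2.43 ± 0.36 (adjusted p = 1.1e-07). At 24 h the libraries had 7.45, 5.49 and 6.23 T>C RPM under DMSO and 7.73, 6.602 and 9.50 under dCBP-30, which overlap (0.31 ± 0.32, adjusted p = 0.47). The difference between the effects at 24 and 2 h was 3.19 ± 0.48 on the log2 scale (interaction contrast, adjusted p = 3.8e-07). Without 4sU, 35.2% of the reads of DDIT4 already carried a T>C conversion, so its T>C reads are not all new RNA. After subtraction of that background the 2 and 24 h values were -2.91 and -0.03, and total DDIT4 RNA was lower at 2 h too (-2.84 ± 0.33, adjusted p = 1.1e-06). At 24 h total DDIT4 RNA was 9.14, 6.38 and 7.68 RPM under DMSO and 12.5, 11.2 and 13.4 under dCBP-30, without overlap and under 2-fold (0.68 ± 0.29, adjusted p = 0.044).

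**Figure D2:**
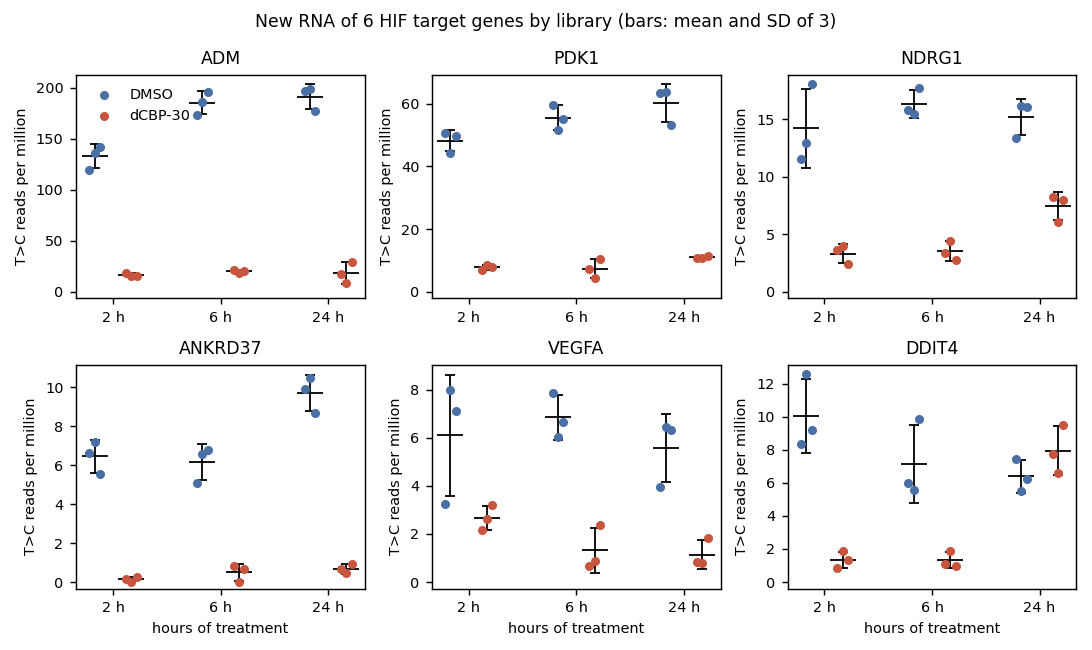
T>C RPM (vertical axes, linear) by library for ADM, PDK1, NDRG1, ANKRD37, VEGFA and DDIT4 under DMSO (blue) and dCBP-30 (red) at 2, 6 and 24 h, with the mean and SD of 3 libraries. ADM stays low at 24 h (8.75 to 29.6 against 177 to 199), whereas DDIT4 returns to 6.602 to 9.50 against 5.49 to 7.45.

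The remaining HIF targets of other function were not called lower in new RNA. BNIP3L, a mitophagy receptor, was called higher at 6 h, with 7.12 ± 2.12 against 2.76 ± 1.31 T>C RPM (SD, n = 3), a log2 fold change of 1.37 ± 0.38 (SE, adjusted p = 0.0043). That call was lost without DMSO replicate 2 at 6 h (1.05). Its total RNA was higher at 6 h by just under 2-fold, with 23.5, 20.6 and 20.5 RPM under DMSO and 51.7, 35.3 and 39.8 under dCBP-30 (0.97 ± 0.17, adjusted p = 4.7e-05). It rose from 22.6, 27.7 and 25.7 RPM under DMSO to 63.7, 71.1 and 78.2 under dCBP-30 at 24 h, without overlap (1.49 ± 0.17, adjusted p = 3.3e-08). EGLN1 (an oxygen sensor), KDM3A (a histone demethylase), P4HA1 (a collagen prolyl hydroxylase) and MXRA7 were not called in new RNA at any time, with log2 fold changes between -0.98 and 1.07. EGLN1 came closest at 24 h, with 5.44, 3.94 and 6.16 T>C RPM under DMSO and 1.92, 3.41 and 2.52 under dCBP-30, which do not overlap (-0.98 ± 0.40, SE, adjusted p = 0.045, just inside 2-fold). Total MXRA7 was higher at 24 h (1.12 ± 0.16, adjusted p = 1.2e-06), although 85.7% of its reads were marked as multimapping. CA9 had no read, BNIP3 had 1 read and EGLN3 had 87 reads over all 20 libraries, so these targets could not be followed in new RNA.

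SLC2A1, the main glucose transporter of proliferating cells, went up before it went down. At 2 h its new RNA was 7.64, 5.29 and 10.6 T>C RPM under DMSO and 14.7, 23.2 and 14.3 under dCBP-30, without overlap (log2 fold change 1.15 ± 0.29, SE, adjusted p = 0.0028). Total SLC2A1 RNA rose with it, from 25.2, 21.4 and 26.2 to 44.4, 56.0 and 47.3 RPM (1.02 ± 0.17, adjusted p = 0.00027). Both calls were lost without dCBP-30 replicate 2 at 2 h (0.88 in T>C reads and 0.92 in total reads) and without DMSO replicate 2 at 2 h (0.93 and 0.94). At 6 h the T>C value was -0.75 ± 0.29 (adjusted p = 0.051), and at 24 h it was -1.50 ± 0.29 (adjusted p = 2.4e-05), or -0.87 scaled by the T>C reads, under 2-fold. The effect at 24 h differed from that at 2 h by -2.65 ± 0.41 (interaction contrast, adjusted p = 6.7e-07). PFKFB3 and PFKFB4, which make the activator of phosphofructokinase, were not called in new RNA. Total PFKFB3 was higher at 24 h (1.31 ± 0.22, adjusted p = 1.5e-05) and total PFKFB4, with 780 reads in all libraries, at 6 h (1.56 ± 0.60, adjusted p = 0.041), a call lost under 4 of 25 alternatives.

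Of the glycolytic enzymes, HK2, the first and inducible step, fell the most. At 2 h the groups overlapped, with 3.40, 5.64 and 4.48 T>C RPM under DMSO and 4.83, 5.94 and 5.88 under dCBP-30 (0.30 ± 0.38, SE, adjusted p = 0.73). At 6 h it had 3.75, 4.42 and 4.88 against 0.479, 0.665 and 0.674 T>C RPM (-2.83 ± 0.45, adjusted p = 6.8e-07), and at 24 h 7.26, 5.01 and 4.71 against 0.0548, 0.165 and 0.376, or 261 against 11 T>C reads (-4.77 ± 0.51, adjusted p = 1.2e-11). Of its reads 26.9% were marked as multimapping. Total HK2 RNA was -1.72 ± 0.18 at 6 h and -2.21 ± 0.18 at 24 h (adjusted p = 1.7e-08 and 1.7e-10). HK1, the constitutive hexokinase, had 79 T>C reads over the DMSO libraries and was not called in them, while its total RNA was higher, from 10.8, 7.69 and 4.71 RPM under DMSO to 39.2, 42.5 and 41.9 at 24 h (2.41 ± 0.23, adjusted p = 2.0e-09).

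LDHA, which turns pyruvate to lactate, and ENO1, the ubiquitous enolase, fell at 6 h and stayed low. LDHA had 36.0, 46.3 and 42.1 T>C RPM under DMSO at 2 h and 32.9, 28.4 and 37.5 under dCBP-30, which overlap (-0.33 ± 0.20, SE, adjusted p = 0.34). At 6 h it had 29.9, 37.6 and 57.5 against 11.4, 7.81 and 6.01 T>C RPM (-2.31 ± 0.21, adjusted p = 6.1e-14), and at 24 h the value was -2.76 ± 0.22 (adjusted p = 1.7e-16). Its 3′ UTR lies at chr11:18407130-18408218, and 30.3% of its reads were marked as multimapping. ENO1 was lower in every treated library already at 2 h, by less than 2-fold: 46.9, 59.7 and 55.2 against 37.4, 36.6 and 38.5 T>C RPM (-0.52 ± 0.17, adjusted p = 0.040). It reached -2.06 ± 0.18 at 6 h and -2.44 ± 0.19 at 24 h (adjusted p = 2.7e-14 and 5.5e-17). Total RNA of both was lower by under 2-fold at 6 h (-0.79 and -0.72) and far lower at 24 h (-2.57 ± 0.19 for LDHA and -2.35 ± 0.10 for ENO1, adjusted p = 1.2e-10 and 5.6e-16).

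GAPDH, often used as a reference gene, was among the genes that fell. Its new RNA was 112, 124 and 96.7 T>C RPM under DMSO and 131, 105 and 108 under dCBP-30 at 2 h (0.05 ± 0.14, SE, adjusted p = 0.90). At 6 h it was 89.4, 101 and 99.2 against 50.9, 48.6 and 39.3 (-1.06 ± 0.15, adjusted p = 2.4e-08), and at 24 h 101, 113 and 116 against 31.4, 28.1 and 28.0 (-1.92 ± 0.15, adjusted p = 1.5e-16). The 6 h change was under 2-fold when scaled by the T>C reads (-0.74). Total GAPDH RNA was 5445 ± 102 RPM under DMSO and 2668 ± 189 under dCBP-30 at 24 h (SD, n = 3), a log2 fold change of -1.03 ± 0.10 (adjusted p = 1.7e-09), which is -0.51 without TMM factors, where the median gene stood at 0.58. ENO2, the neuronal enolase, was the only enzyme called at 2 h, with 17.2, 16.9 and 20.9 against 9.06, 9.04 and 8.45 T>C RPM (-1.05 ± 0.22, adjusted p = 0.00027), and -0.94 without DMSO replicate 3 at 2 h. It was -1.27 ± 0.22 at 6 h and -2.70 ± 0.23 at 24 h (adjusted p = 4.0e-06 and 3.7e-15).

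The other enzymes were called mostly at 24 h. PGK1, the first ATP-making step, had 10.9, 12.6 and 14.1 T>C RPM under DMSO at 24 h and 3.29, 2.86 and 3.44 under dCBP-30 (-1.97 ± 0.28, SE, adjusted p = 4.1e-08), after -0.44 ± 0.27 at 2 h (adjusted p = 0.38). PGAM1, phosphoglycerate mutase, had 24.8, 25.0 and 30.4 against 8.11, 5.56 and 9.98 (-1.76 ± 0.21, adjusted p = 4.7e-10), although 94.6% of its reads were marked as multimapping. ALDOA, an aldolase, had 33.4, 30.2 and 24.9 against 12.6, 8.42 and 8.96 (-1.56 ± 0.22, adjusted p = 2.1e-08), or -0.90 scaled by the T>C reads, and its counted bases overlap a second gene model, ENSG00000285043, on the same strand. No treated library of these 3 enzymes reached a vehicle library at 24 h, when 31.2% of all genes were called lower. The share of all genes without overlap was not counted, and the 31.2% called is another measure. PFKM, the muscle phosphofructokinase, was called at 6 h alone, with 2.90, 2.41 and 3.52 against 0.778, 0.776 and 1.16 T>C RPM (-1.69 ± 0.55, adjusted p = 0.017), a call lost under 5 of 27 alternatives. LDHB was lower at 6 and 24 h (-1.39 ± 0.32 and -1.28 ± 0.31, adjusted p = 0.00062 and 0.00068), and GPI and PFKL at 24 h (-1.09 ± 0.25 and -1.50 ± 0.42, adjusted p = 0.00023 and 0.0026). TPI1 and PKM at 24 h were just inside 2-fold (-0.99 ± 0.18 and -0.97 ± 0.22, adjusted p = 4.9e-06 and 0.00028). ALDOC was not called, and PFKP had 12 reads over all libraries and was not tested.

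**Figure D3:**
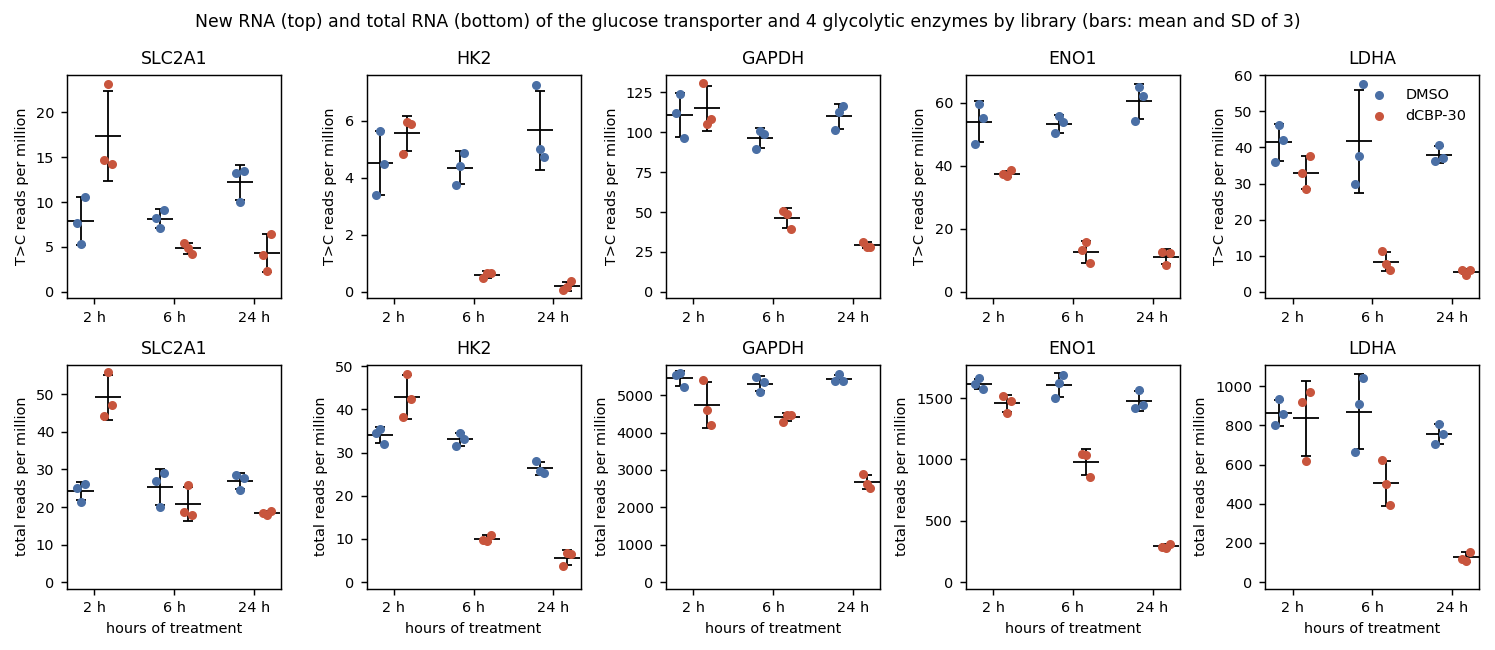
T>C RPM (top row) and total RPM (bottom row) by library for SLC2A1, HK2, GAPDH, ENO1 and LDHA under DMSO (blue) and dCBP-30 (red), with the mean and SD of 3 libraries, on linear axes. SLC2A1 is high at 2 h, with total levels of 44.4 to 56.0 against 21.4 to 26.2 RPM, and new RNA of the 4 enzymes is low from 6 h on, with their total RNA lowest at 24 h.

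Over all 17 enzymes, the summed new RNA was 353 ± 28.8 T>C RPM (SD, n = 3) under DMSO and 334 ± 14.4 under dCBP-30 at 2 h. It was 335 ± 18.2 against 148 ± 9.32 at 6 h, and 399 ± 17.3 against 114 ± 11.3 at 24 h. The 14 HIF targets of other function summed to 181 ± 19.7 and 35.4 ± 2.57 T>C RPM already at 2 h, of which ADM made up 133 and 16.4. For these 2 roles the groups overlapped for the enzymes at 2 h alone. Total RNA of the enzymes was 13312 ± 203 RPM under DMSO and 6113 ± 185 under dCBP-30 at 24 h.

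Total reads were tested in 35 of the 38 genes, among 12267 genes. At 2 h, 3 were lower (ADM, ANKRD37, DDIT4; background 1.25%) and SLC2A1 was higher (background 0.457%). At 6 h, 8 were lower (background 8.68%) and 3 higher (HK1, EPAS1, PFKFB4; background 7.47%). At 24 h, 13 were lower (background 16.1%), 9 of them glycolytic enzymes, and 5 higher (HK1, EPAS1, PFKFB3, BNIP3L, MXRA7; background 15%). Without TMM factors, 6 were lower at 24 h (ADM, ANKRD37, PDK1, HK2, ENO1, LDHA; background 8.63%) and 7 higher (background 30%).

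The share of T>C reads under DMSO is set beside the change of total RNA at 2 h. That share counts labelled reads and any T>C background of the gene, and its median was 3.38% in 16 glycolytic enzymes, 28.6% in 10 HIF targets of other function and 11.1% in 9691 genes with at least 50 T>C reads. It ranged from 1.86% for ALDOA to 15.7% for HK2 among the enzymes. Without 4sU the share was 0.968% for GPI (2.18% under DMSO), 0.53% for PFKL (1.91%) and 0.536% for GAPDH (1.96%). It was 0.304% for LDHA (4.87%) and 0.218% for HK2 (15.7%). The T>C reads of enzymes with a low share are therefore not all new RNA either. Among the 7 genes whose new RNA was lower at 2 h, total RNA at 2 h was -2.56 for ADM, where the share was 78.5%, -2.53 for ANKRD37 (34.6%) and -2.84 for DDIT4 (81.6%, with 35.2% already without 4sU). It was -0.55 for PDK1 (18.9%), -0.49 for VEGFA (43.4%), -0.22 for NDRG1 (8.66%) and -0.14 for ENO2 (5.49%). The share rests on the same DMSO libraries as the fold change, so this is a description over 7 genes, in which VEGFA had a high share and little change of total RNA.

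**Figure D4:**
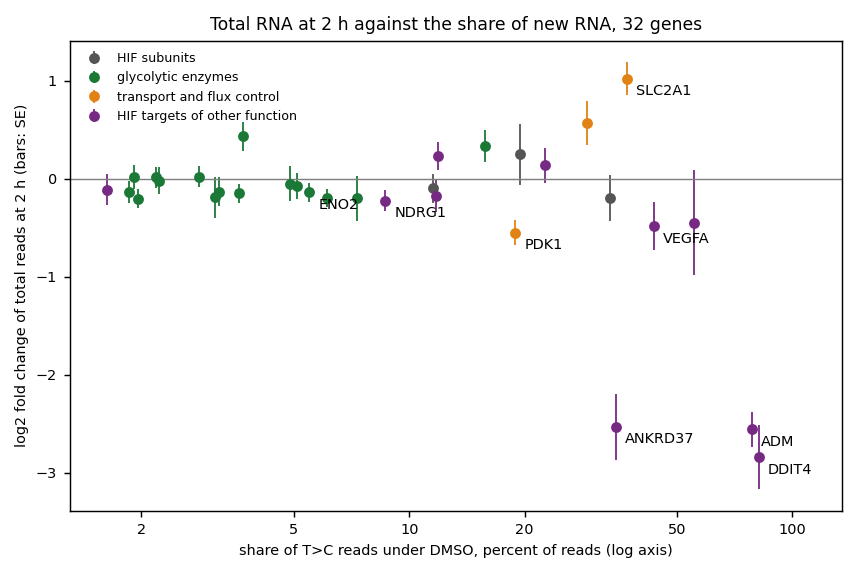
Share of T>C reads under DMSO (horizontal log axis, percent of a gene's reads over 9 libraries) against the log2 fold change of total reads at 2 h (vertical axis, bars SE) for 32 genes, coloured by role and named where new RNA was called at 2 h. The glycolytic enzymes lie at 1.86% to 15.7% and near 0 on the vertical axis, and ADM and DDIT4 lie at 78.5% and 81.6% and below -2.5. The shares include background, which was 35.2% for DDIT4 without 4sU.

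The balance of 4 isoenzyme pairs changed in total RNA by 24 h. The ratio of HK2 to HK1 reads was 2.59, 3.34 and 5.37 under DMSO at 24 h and 0.0951, 0.159 and 0.156 under dCBP-30, and already 3.95, 3.95 and 4.25 against 0.427, 0.429 and 0.384 at 6 h. LDHA to LDHB was 2.66, 2.02 and 1.78 against 0.672, 0.581 and 0.914 at 24 h. ENO2 to ENO1 was 0.303, 0.283 and 0.304 against 0.642, 0.643 and 0.569, and ALDOC to ALDOA 0.0172, 0.0229 and 0.0249 against 0.0575, 0.0637 and 0.0643. None of these 4 ratios overlapped between the groups at 24 h, and the share of other gene pairs without overlap was not counted. PFKFB4 to PFKFB3 did overlap, at 0.327, 0.266 and 0.136 against 0.0821, 0.0929 and 0.239. PFKP, BNIP3 and EGLN3 had too few reads for a ratio to PFKL, BNIP3L and EGLN1. The ratios were not tested. In new RNA at 24 h, HK2 to HK1 was 11.2, 5.25 and 5.91 against 0.0769, 0.0882 and 1.17, whereas ENO2 to ENO1 was 0.580, 0.409 and 0.495 against 0.422, 0.441 and 0.371, which overlap. HK1 was counted on a 3′ UTR of 17 pieces, PFKL on 24 and PFKM on 21. NDRG1 and KDM3A were counted on 10 pieces each, ENO1 on 8 and PKM on 4. ALDOA, ANKRD37, EGLN1 and MXRA7 were counted on 2 each. Reads of internal exons can enter the genes counted on several pieces.

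**Figure D5:**
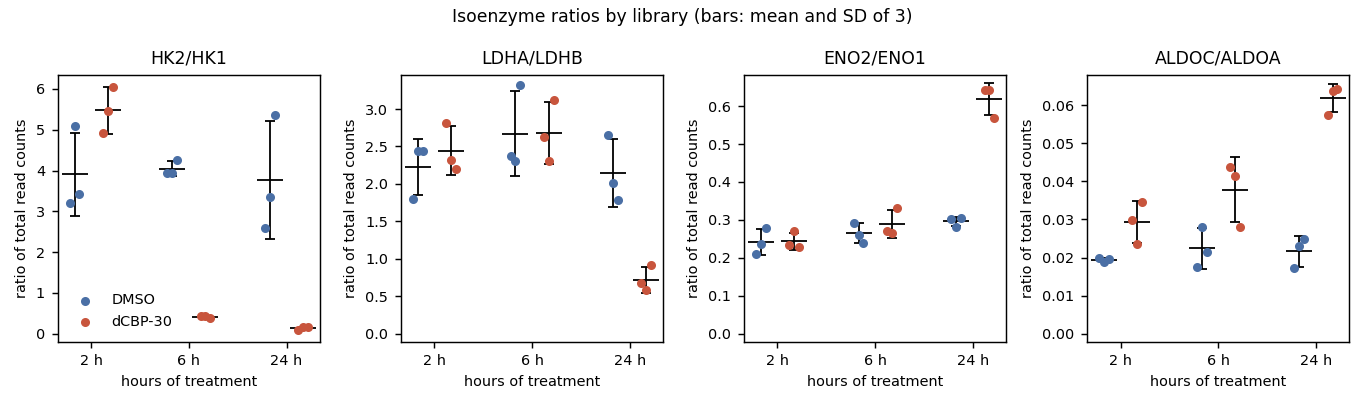
Ratio of total read counts (vertical axes, linear) within a library for HK2/HK1, LDHA/LDHB, ENO2/ENO1 and ALDOC/ALDOA under DMSO (blue) and dCBP-30 (red) at 2, 6 and 24 h, with the mean and SD of 3 libraries. At 24 h HK2/HK1 is 0.0951 to 0.159 against 2.59 to 5.37, and ENO2/ENO1 is 0.569 to 0.643 against 0.283 to 0.304.

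The difference between early and late effects was tested for each gene. Against 2 h, the effect at 6 h was more negative in 7 of 34 genes (background 7.32%) and more positive in 0 (background 0.684%; 2 at an unadjusted p under 0.05). At 24 h it was more negative in 14 (background 22.8%), 12 of them glycolytic enzymes, and more positive in 2, DDIT4 and NDRG1 (background 3.05%). Both comparisons share the 2 h libraries. For LDHA the difference was -1.98 ± 0.29 (SE) at 6 h and -2.43 ± 0.29 at 24 h (edgeR's quasi-likelihood test, adjusted p = 6.9e-07 and 1.1e-09), whereas for ADM it was -0.18 ± 0.33 and -0.34 ± 0.33 (adjusted p = 0.84 and 0.49) and for PDK1 -0.29 ± 0.27 and 0.19 ± 0.27 (adjusted p = 0.64 and 0.67). The median of all genes was -0.32 at 6 h and -0.72 at 24 h. With library sizes from T>C reads, 9 genes had a more negative effect at 24 h (background 9.88%).

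The vehicle cells also drifted. From DMSO at 2 h to DMSO at 24 h, new RNA of 2 of the 34 genes was higher, against 2.45% of all genes. They were ARNT (1.19 ± 0.35, SE, edgeR's adjusted p = 0.033) and EGLN1 (1.37 ± 0.42, adjusted p = 0.039). The median of all genes was 0.49. At an unadjusted p under 0.05, 9 members were higher in new RNA, 5 of them glycolytic enzymes, and 1 was lower. Such change of the vehicle cells enters the differences of effect between 24 and 2 h. In total reads 0 members were called by edgeR's quasi-likelihood test, with 3 lower and 4 higher at an unadjusted p under 0.05. With scaling by the T>C reads 0 members were called. Time point and harvest cannot be told apart here.

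The wider pathway was described by 3 further lists from general knowledge, chosen with earlier results of these data known. Their counts stand beside 7.14%, 17.1% and 31.2% of all genes lower at 2, 6 and 24 h. The shares higher were 1.64%, 2.36% and 2.18%. Of 13 oxygen sensing genes 11 were tested in T>C reads, and 1, 1 and 5 were lower at 2, 6 and 24 h with 0 higher (0, 1 and 1 at an unadjusted p under 0.05). At 2 h and 6 h a single gene of 11 is near or below the share of all genes. CITED2, which competes with HIF for CBP and p300, was the early one, with 16.8, 14.9 and 21.0 T>C RPM under DMSO at 2 h and 3.71, 6.80 and 8.95 under dCBP-30 (-1.42 ± 0.24, SE, adjusted p = 7.1e-06), and -1.74 ± 0.24 and -1.75 ± 0.24 later (adjusted p = 2.6e-08 and 1.4e-08). ELOB, a partner of VHL, was -1.50 ± 0.44 at 24 h (adjusted p = 0.0049). Of 31 other HIF targets 20 were tested, and 2, 6 and 5 were lower with 0 higher (1, 2 and 0 at an unadjusted p under 0.05). The 2 at 2 h are near the share of all genes, and the 5 at 24 h are below it. At 2 h the median log2 fold change of this list was -0.015, with 10 of the 20 genes below 0. It was -0.997 for the HIF targets of other function, so the early fall of those genes was not seen across this list. CXCR4, a chemokine receptor, had 22.7, 28.6 and 17.2 T>C RPM under DMSO at 2 h and 0.691, 0.726 and 0.688 under dCBP-30 (-5.01 ± 0.36, adjusted p = 6.4e-18), and remained at -4.75 ± 0.35 and -5.54 ± 0.37 (adjusted p = 2.0e-17 and 3.4e-19). MXI1, a MAX partner, was -1.07 ± 0.31 at 2 h, HMOX1 (heme oxygenase) -2.49 ± 0.69 at 6 h and PLOD2 (a lysyl hydroxylase) -2.04 ± 0.62 at 24 h (adjusted p = 0.014, 0.0044 and 0.0061).

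Of 28 other genes of glycolysis and pyruvate use 18 were tested, and 0, 1 and 6 were lower and 0, 1 and 1 higher, so the lower counts were below the share of all genes at 2 and 6 h and near it at 24 h. At 2 h, 0 were lower and 3 higher at an unadjusted p under 0.05, and DESeq2 called 2 higher. TKT, transketolase of the pentose phosphate pathway, was -1.09 ± 0.33 at 6 h and -1.92 ± 0.34 at 24 h (adjusted p = 0.011 and 3.4e-06). SLC16A1, a lactate transporter, was -2.10 ± 0.61 at 24 h (adjusted p = 0.0041). SLC2A3, the high-affinity glucose transporter, was the 1 that rose in new RNA: 69 T>C reads under dCBP-30 against 2 under DMSO at 6 h, a ratio of 29.6 with an exact 95% counting interval of 7.89 to 249 (adjusted p = 0.0077), and 2.96 ± 1.16 at 24 h (adjusted p = 0.035). In total RNA at 24 h, 4 of 23 tested genes of this list were lower, SLC16A1 among them (background 16.1%). Another 5 were higher, SLC16A3 among them (background 15%).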

How the data were processed

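The 20 SLAM-seq libraries (3′ end counting, MM1.S cells) comprised 18 with and 2 without 4sU. Per the methods, the authors trimmed reads with Trim Galore, aligned them to hg38 and counted reads and T>C reads over 3′ UTRs with Slamdunk, collapsed by UTR. The deposited values used were these counts per transcript, with reads marked as multimapping. Transcripts were matched to GENCODE release 44 (91.4% of 97466 rows), and 1 transcript per gene was kept. Counts were tested with edgeR 4.0.16 in R 4.3.3 (quasi-likelihood, 6 groups in 1 fit, filterByExpr with a minimum count of 10), with TMM library sizes from total reads for T>C and total counts alike. Standard errors were derived from the F statistic. RPM is reads per 1000000 of that library size. DESeq2 1.42.0, other scalings, filters, a replicate block, background subtraction, sums over transcripts, separate time points, an adjusted p under 0.1 and leaving out each library were alternatives. The test was checked on simulated data. The members and lists were chosen with earlier results of these data known. Full statistics were given for the 16 members with the largest called changes in T>C reads (20 T>C reads or more on average in the higher group) and for HIF1A, ARNT, SLC2A1, GAPDH, LDHA, PGK1, PDK1, VEGFA and DDIT4. Depth was 12439672 to 18727376 reads per library, and PCR reads are not independent molecules, so counting intervals cover counting error only.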

Additional observations from a re-analysis of the deposited data

Results flagged for a closer look

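For the following genes the effect of dCBP-30 on new RNA differed between time points in a test of that difference (edgeR's quasi-likelihood test, interaction contrast, adjusted p under 0.05 over all genes). Both differences use the 2 h libraries, and a change of the vehicle cells between times enters them. Between 24 and 2 h the effect on the log2 scale moved by -5.07 for HK2, -2.65 for SLC2A1, -2.45 for PFKL, -2.43 for LDHA and -1.97 for GAPDH. It moved by -1.91 for ENO1, -1.86 for EGLN1, -1.65 for ENO2, -1.58 for PGAM1, -1.58 for ALDOA and -1.53 for PGK1. It moved by -1.38 for PKM, -1.30 for TPI1 and -1.15 for GPI, and upward by 1.07 for NDRG1 and 3.19 for DDIT4. Between 6 and 2 h it moved by -3.13 for HK2, -1.98 for LDHA, -1.90 for SLC2A1, -1.54 for ENO1, -1.11 for GAPDH, -1.002 for TPI1 and -0.999 for PKM. Scaled by the T>C reads, the 24 h differences of GPI (-0.51), TPI1 (-0.65), PGK1 (-0.89), PKM (-0.72) and EGLN1 (-1.19) and the 6 h differences of TPI1 (-0.70) and PKM (-0.70) no longer passed the test (adjusted p from 0.057 to 0.33), while those of NDRG1 and DDIT4 were larger (1.72 and 3.84).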

How the results depend on the processing

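Scaling by the T>C reads gave 11 genes lower and 2 higher at 24 h in new RNA, 9 with a more negative effect at 24 than at 2 h, and 0 higher in DMSO at 24 against 2 h. Without TMM factors 2 were higher in new RNA and 6 lower in total RNA at 24 h. The DMSO drift count was 0 with reads summed over transcripts and 1 after background subtraction. Leaving out 1 library at a time gave, in new RNA, 5 to 7 lower and 0 to 2 higher at 2 h, 13 to 15 and 0 to 1 at 6 h, and 17 to 19 and 0 to 1 at 24 h. In total RNA it gave 3 lower and 0 to 1 higher at 2 h, 8 and 2 to 4 at 6 h, and 12 to 13 and 5 at 24 h. Differences from 2 h were more negative in 6 to 9 and more positive in 0 to 1 genes at 6 h, and in 13 to 15 and 1 to 2 at 24 h, and 0 to 2 genes were higher in the DMSO drift. The higher count at 2 h was 0 in both readouts without dCBP-30 or DMSO replicate 2 at 2 h and 2 in new RNA without DMSO replicate 3 at 2 h, and that at 6 h was 0 without DMSO replicate 2 at 6 h. At 24 h it was 1 without DMSO replicate 3. The more positive count at 6 h was 1 without dCBP-30 replicate 2 at 6 h, and that at 24 h was 1 without replicate 3 of either group at 2 h or replicate 1 of either group at 24 h. The drift count was 0 without DMSO replicate 1 or 2 at 2 h or replicate 1 or 3 at 24 h, and 1 without replicate 3 at 2 h or 2 at 24 h. Same-numbered libraries had correlated deviations of -0.36 to 0.11, so the numbers were not taken as pairs. With the replicate block 7, 14 and 18 genes were lower in new RNA and 3, 8 and 13 in total RNA at 2, 6 and 24 h. Of 73 called single values 50 were called under every alternative. Of 5339 alternative values 61 lost and 39 gained a call and 0 reversed, and the causes were not tested. Separate time points and DESeq2 gave no value for differences between times. Genes with few T>C reads (EPAS1, HK1, BHLHE40, PFKFB4) are limited by depth.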
